A study of Homo sapiens with 75 samples.

Results

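The Fanconi anaemia genes encode the proteins of a repair pathway for DNA crosslinks. In that pathway FANCM anchors a nuclear core complex on damaged DNA. Within the complex FANCL is the ubiquitin ligase, held by FANCB in the catalytic module, while FANCG belongs to one arm of the complex and FANCC, FANCE and FANCF to another that helps to bring in the substrate. The substrate is the FANCI and FANCD2 pair, which clamps onto DNA once ubiquitin is attached, and inherited loss of the genes of the core complex or of this pair, FANCM set aside, causes Fanconi anaemia, a bone marrow failure with sensitivity to crosslinking agents. The members were all genes of a list of 10 whose symbol was the only one given to a probe set of the array, and 8 of the 10 met this rule, out of 19775 genes with such a probe set. These were FANCB, FANCC, FANCE, FANCF, FANCG, FANCI, FANCL and FANCM, with 19 probe sets among them. FANCA and FANCD2 were not analysed here.

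Messenger RNA was measured on 75 arrays from 5 human cell lines, TK6 (B lymphoblasts), U2OS (osteosarcoma), BJ (skin fibroblasts), HepG2 (hepatoma) and G361 (melanoma). Each line had 3 arrays of cells given 5 Gy of ionising radiation for each of 2 times, 3 h and 6 h, and 3 arrays of untreated (mock-irradiated) cells for each of 0 h, 3 h and 6 h. All cells were grown in DMEM with serum, and no genotype other than that of the line was given. Values are log2 levels, and each gene was read from its brightest probe set by the mean of all 75 arrays. Nothing in the labels says that the 3 arrays of a group came from separate cultures. The p-values therefore cover no more than the variation among these arrays, possibly technical.

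Array medians lay between 3.91 and 4.07 log2, no 2 arrays were identical, and arrays of a group correlated at 0.970 to 0.996. Markers chosen for the lines' tissues were highest in the named line for 6 of 6 melanocyte markers in G361, 7 of 7 B lymphoid markers in TK6 and 9 of 9 fibroblast markers in BJ, but for 2 of 5 osteoblast markers in U2OS and 1 of 8 hepatocyte markers in HepG2, where albumin averaged 2.77 log2. Of the hepatocyte markers 4 of 8 were highest in U2OS, among them SERPINA1 (8.57 log2, against 3.26 log2 in HepG2). The others of these, APOA1, APOB and FGB, were low in both lines (4.27, 3.08 and 2.94 log2 in U2OS). RUNX2, an osteoblast factor, was higher in HepG2 (9.17 log2) than in U2OS (8.04 log2). Other markers went with the names, as AFP was higher in HepG2 (5.89 against 5.48 log2) and the osteoblast marker SPP1 in U2OS (8.83 against 7.1 log2). The names HepG2 and U2OS are therefore those of the labels throughout. The mean of 26 p53 target genes, relative to the line's own untreated 0 h arrays, was 1.35 to 1.60 log2 in the 6 irradiated arrays of TK6, 0.63 to 1.35 in those of U2OS and 0.50 to 0.58 in those of BJ. In HepG2 it was −0.01 to 0.17 in the arrays labelled irradiated at 3 h, against 0.80 to 0.84 in those labelled untreated at 6 h. In G361 it was −0.06 to 0.14 in the arrays labelled irradiated at 3 h, against 0.02 to 0.77 in those labelled untreated at 6 h. Those comparisons are across times. Against untreated arrays of the same time, the median difference of the 26 genes in HepG2 was −0.13 log2 at 3 h and 0.19 log2 at 6 h. In G361 it was −0.21 log2 at 3 h and 0.02 log2 at 6 h, and 0 of the 26 were called in either line. With the replicate number as a block, 5 of the 26 were called higher in HepG2 at 6 h and 0 lower. Set against untreated 0 h, the HepG2 median was 0.93 log2 in arrays labelled irradiated at 6 h (20 called higher). It was 0.64 log2 in those labelled untreated at 6 h (13 called higher). In G361 these medians were 0.51 and 0.37 log2, with 0 called. CDKN1A, a p53 target that halts the cell cycle, averaged 10.43 ± 0.02 log2 in the HepG2 arrays labelled irradiated at 6 h, against 10.38 ± 0.12 log2 in those labelled untreated at 6 h (SD, n = 3 each). The treatment groups of HepG2 and G361 are therefore called by their labels below. For both lines the median difference of the Fanconi anaemia genes from the untreated 0 h arrays is also given, and for HepG2 that of FANCM.

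Untreated cells of the 5 lines differed in all 8 genes at 0 h. A moderated F test in limma over the 15 arrays called every gene (adjusted p 1.7e-10 for FANCG to 0.000248 for FANCB), where 77.9% of the 16027 genes tested were called. BJ fibroblasts had the lowest level of 6 genes (FANCC, FANCE, FANCG, FANCI, FANCL and FANCM) and U2OS the highest level of the same 6. FANCF was lowest in HepG2 and highest in TK6. FANCB was highest in G361 and under the level limit for testing in U2OS and BJ, which were not called apart. It entered this test only through the other lines, as a gene had to pass the limit in at least 1 line. Its call was thus favoured by the lines where it is high.

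FANCI, the substrate partner of FANCD2, had 9.97, 9.52 and 9.50 log2 in the U2OS arrays at 0 h, against 7.32, 7.78 and 7.63 log2 in those of BJ. It averaged 9.66 ± 0.27 log2 in U2OS, 9.49 ± 0.51 in G361, 9.32 ± 0.12 in TK6, 8.97 ± 0.27 in HepG2 and 7.57 ± 0.24 in BJ (SD, n = 3 each). Each BJ array lay below every array of the other lines. The step between HepG2 and BJ was 1.39 log2 (limma, adjusted p = 3.68e-06 over all genes and pairs of lines), and the 3 steps above it, 0.17 to 0.36 log2, were not called. In these bulk samples fewer cells with a transcript and less transcript per cell cannot be told apart.

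FANCM, the anchor, averaged 6.71 ± 0.14 log2 in U2OS, 5.92 ± 0.20 in TK6, 5.87 ± 0.53 in HepG2, 5.85 ± 0.20 in G361 and 4.64 ± 0.08 in BJ. Both ends stood apart, U2OS from TK6 by 0.79 log2 (adjusted p = 0.00413) and G361 from BJ by 1.21 log2 (adjusted p = 5.65e-05). The 3 lines between them differed by no more than 0.05 log2 from one to the next, which was not called. FANCL, the ligase, averaged 8.43 ± 0.17 log2 in U2OS, 8.24 ± 0.24 in TK6, 7.96 ± 0.21 in HepG2, 7.53 ± 0.22 in G361 and 7.03 ± 0.07 in BJ. Only the steps from HepG2 to G361 (0.42 log2, adjusted p = 0.0412) and from G361 to BJ (0.50 log2, adjusted p = 0.0156) were called. FANCB, which holds FANCL in the catalytic module, averaged 4.68 ± 0.52 log2 in G361, 4.06 ± 0.14 in TK6, 3.82 ± 0.41 in HepG2, 3.55 ± 0.10 in BJ and 3.43 ± 0.23 in U2OS. Its G361 level lay 0.62 log2 above that of TK6 (adjusted p = 0.0308), and no other step was called. Over all 15 arrays of a line, FANCB stayed under the level limit for testing in U2OS and BJ, so irradiation effects were tested for 8 genes in 3 lines and for 7 in these 2.

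FANCG, a scaffold of the core complex, separated the lines most finely, with 9 of the 10 pairs of lines called apart. It averaged 8.43 ± 0.23 log2 in U2OS, 7.58 ± 0.08 in HepG2, 7.38 ± 0.03 in TK6, 6.90 ± 0.30 in G361 and 6.02 ± 0.07 in BJ. Of its neighbours in that order, HepG2 and TK6 were not called apart (0.20 log2, adjusted p = 0.363). FANCC, which pairs with FANCE and FANCF, averaged 6.33 ± 0.09 log2 in U2OS, 5.95 ± 0.13 in G361, 5.85 ± 0.34 in HepG2, 5.68 ± 0.12 in TK6 and 4.79 ± 0.39 in BJ. Only BJ stood apart from its neighbour, by 0.89 log2 (adjusted p = 0.000948).

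FANCE, the core subunit that contacts FANCD2, averaged 8.0 ± 0.46 log2 in U2OS, 7.68 ± 0.18 in HepG2, 6.88 ± 0.19 in G361, 6.66 ± 0.42 in TK6 and 6.50 ± 0.19 in BJ. The lines formed a high and a low set, with HepG2 0.81 log2 above G361 (adjusted p = 0.0039) and no step called within either set. FANCF, the adaptor that links FANCC and FANCE to the rest of the complex, had another order. It averaged 7.66 ± 0.29 log2 in TK6, 7.54 ± 0.53 in G361, 7.29 ± 0.15 in U2OS, 6.75 ± 0.13 in BJ and 6.09 ± 0.42 in HepG2. The only called step was that from BJ to HepG2 (0.66 log2, adjusted p = 0.0223). Over the 32 neighbouring pairs of lines of the 8 genes, 12 were called apart and 20 were not. Neighbours were set by the same values, and no share over all genes was taken for them. Over all 80 pairs of lines of the 8 genes, 52 (65.0%) were called apart, where 48.8% of the tests of all genes and pairs of lines were called. The 52 include 5 pairs of FANCB, which entered only through the lines where it passed the level limit. Its calls against U2OS and BJ are therefore no separate support. Against BJ, U2OS was called higher for 6 genes and lower for 0, where 30.0% of all genes were called higher and 22.8% lower. G361 was called higher than BJ for 7 genes (27.2% of all genes), FANCB among them. TK6 was called higher for 6 (30.3%) and HepG2 for 6 (24.2%), and HepG2 was called lower for FANCF (24.9% of all genes).

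**Figure D1:**
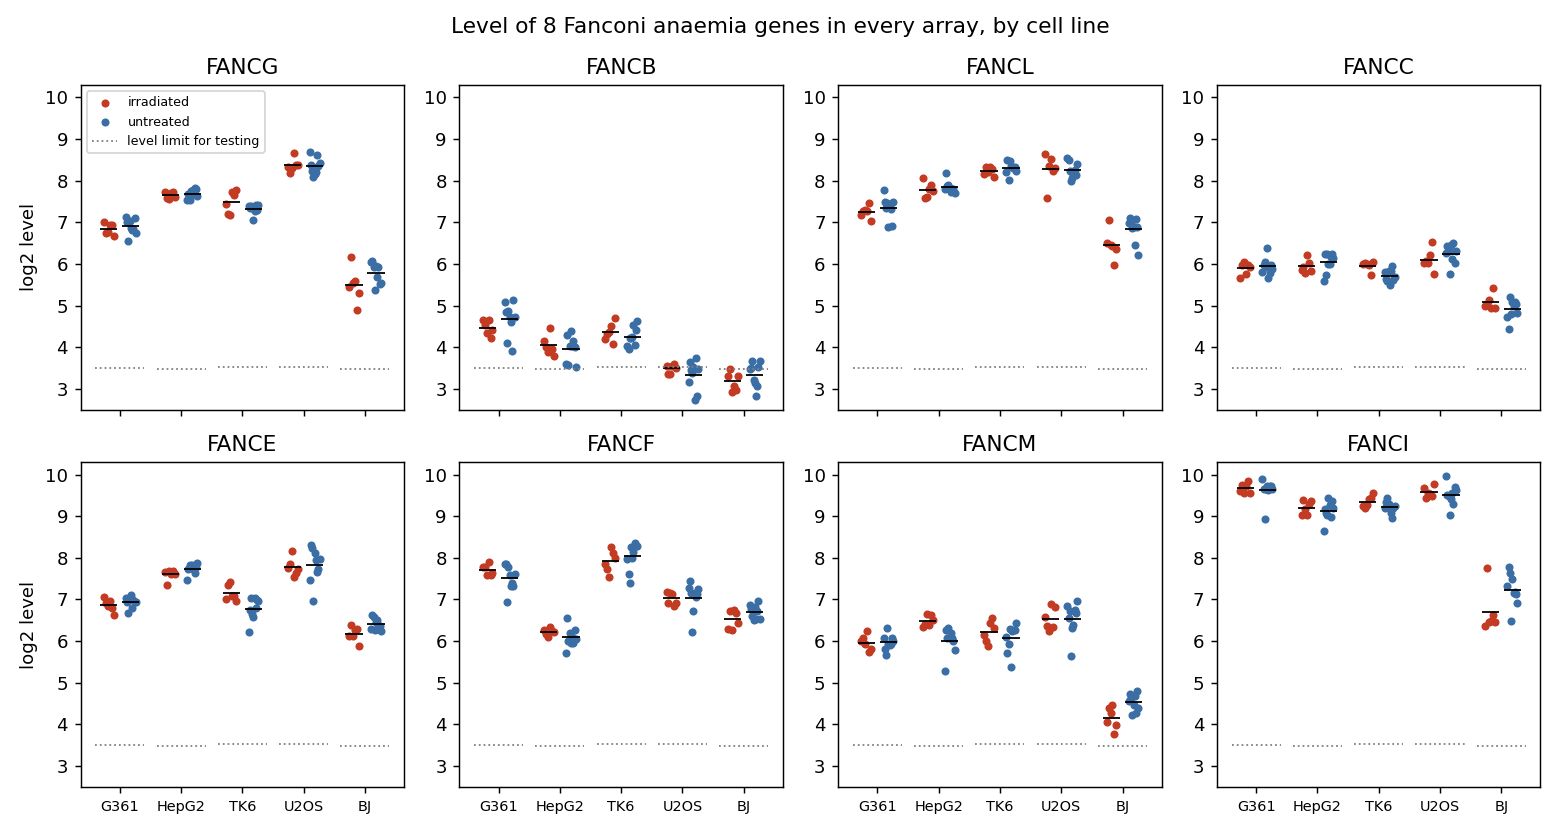
Log2 level of the 8 genes (1 panel each) in all 75 arrays, by line, with 6 irradiated arrays (red) left of 9 untreated arrays (blue) per line, black bars for the mean and dotted lines for the level limit of testing. By the mean of 15 arrays BJ lies lowest for 7 genes and HepG2 for FANCF, and FANCB sits at or below the limit in U2OS and BJ.

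The probe sets of a gene did not always order the lines alike. The other probe sets of FANCI correlated at 0.99 and 0.96 with the one used, over 25 group means that share these 5 lines, and all 3 had BJ lowest. The highest line at 0 h depended on the probe set. The one correlated at 0.99 had 8.44, 8.45 and 8.56 log2 in TK6 at 0 h, above 8.02, 8.31 and 8.24 log2 in U2OS. For FANCF the probe set used had HepG2 lowest and the other had BJ lowest, with a correlation of 0.87, so the place of HepG2 below BJ depends on the probe set. The probe set used for FANCM spanned 2.16 log2 between line means, while the others spanned 1.21, 0.88 and 0.27 log2. The last of these had G361 (4.23 log2) and not BJ (4.27 log2) lowest. For FANCC the range was 1.21 log2 in the probe set used and 0.23 and 0.15 log2 in the others, which had low levels. The other FANCB probe sets correlated at 0.96, 0.96 and 0.60 with the one used. In the last of these U2OS averaged 3.75 log2 over its arrays, past the limit of 3.52 log2 and above TK6 (3.60 log2). FANCE, FANCG and FANCL had 1 probe set each.

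**Figure D2:**
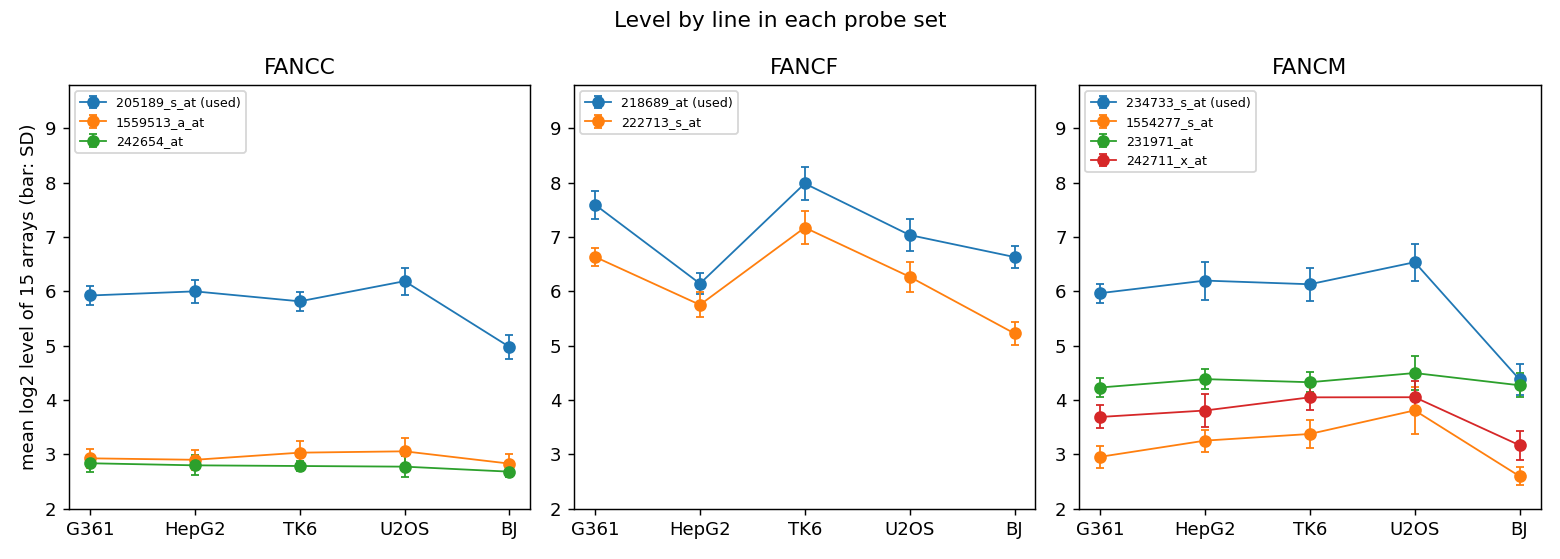
Mean log2 level of 15 arrays (bars, SD) in each line for every probe set of FANCC, FANCF and FANCM. The lower probe sets of FANCC are flat across the lines, and the 2 probe sets of FANCF differ in whether HepG2 or BJ is lowest.

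Arrays labelled irradiated at 5 Gy were set against arrays labelled untreated of the same time. Over 76 tests in limma (8 or 7 genes, 5 lines, 2 times) 0 were called at an adjusted p under 0.05, and 7 had an unadjusted p under 0.05. Of the 76, 44 tests came from TK6, U2OS and BJ, and 32 from HepG2 and G361. In these 2 lines 0 of 26 p53 targets were called in the same fits, as described above. Their median difference was negative at 3 h and positive at 6 h, and 5 were called higher in HepG2 at 6 h with the replicate block. With the replicate number as a block, 4 of the 76 were called, all in TK6. The differences lay between −0.55 and 0.55 log2. Their 95% confidence intervals reached 0.21 to 0.62 log2 to each side (median 0.37), and 75 of the 76 intervals lay within 1 log2 of no change, so smaller changes were not excluded. In the same fits 3.99% of genes were called in TK6 at 3 h and 6.23% at 6 h, 0.0887% and 0.641% in U2OS, and 0.18% and 0.235% in BJ. In HepG2 the shares were 0% at 3 h and 0.00696% at 6 h, and in G361 0% at both times, so in these 4 lines few genes of any kind were called.

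**Figure D3:**
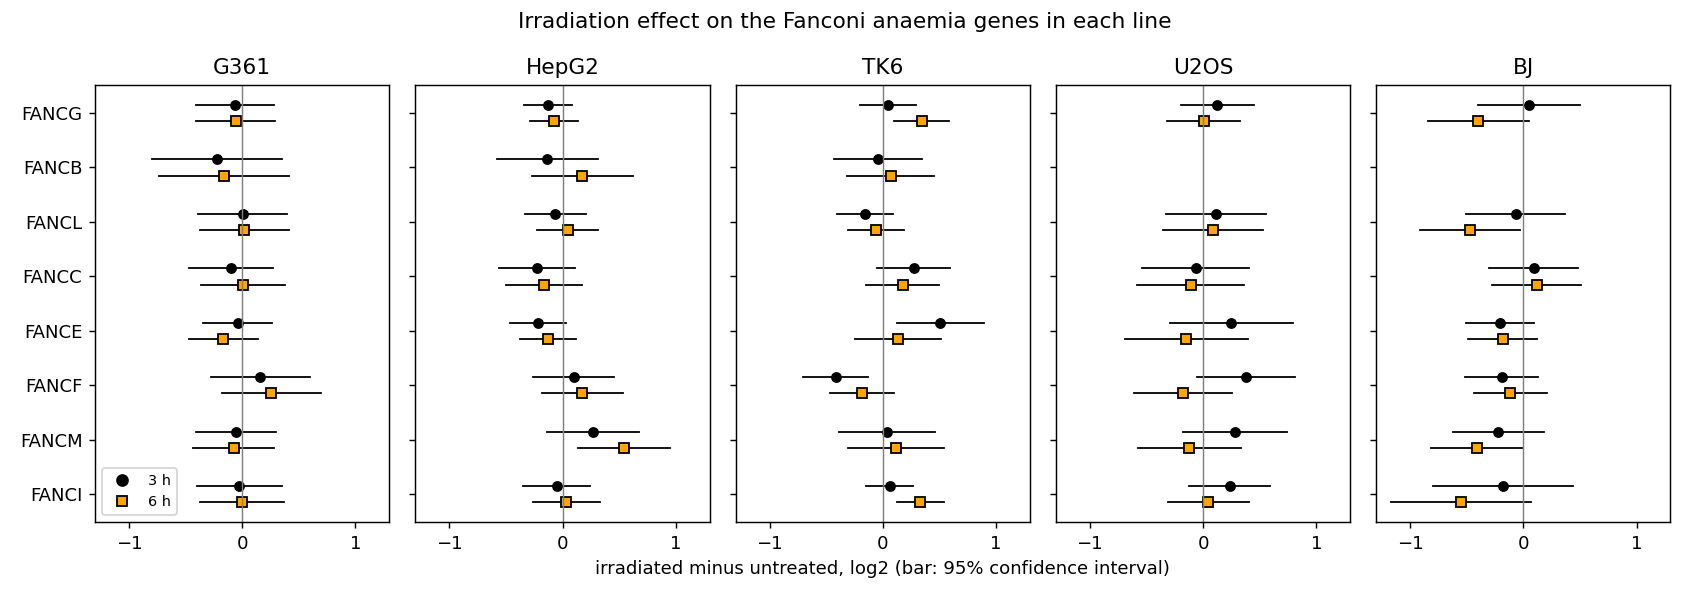
Difference of irradiated minus untreated arrays of the same time (log2) for each gene in each line at 3 h (circles) and 6 h (squares), with 95% confidence intervals from limma. All points lie between −0.55 and 0.55 log2, and 0 of 76 were called in the fit drawn here, without the replicate block. FANCB has no point in U2OS and BJ, where it was not tested.

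TK6 had the lowest adjusted p-values. FANCI had 9.40, 9.44 and 9.55 log2 in TK6 arrays 6 h after irradiation, against 8.95, 9.20 and 9.25 log2 in untreated arrays. All 3 irradiated arrays lay above all 3 untreated ones. The difference was 0.33 log2 (SE 0.10, limma adjusted p = 0.0533). At 3 h the FANCI groups overlapped and differed by 0.06 log2. The other FANCI probe sets gave 0.22 and −0.01 log2 at 6 h. In the first, all 3 irradiated arrays (8.26, 8.45 and 8.44 log2) also lay above all 3 untreated ones (8.08, 8.19 and 8.21 log2). In the second the groups overlapped, so not every probe set shared the difference. At 0 h untreated TK6 arrays averaged 9.32 ± 0.12 log2 in the probe set used, above all 3 untreated 6 h arrays. In the first other probe set the 0 h arrays had 8.44, 8.45 and 8.56 log2, so the irradiated 6 h arrays did not exceed them.

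FANCG had 7.74, 7.65 and 7.78 log2 in irradiated TK6 arrays at 6 h, against 7.43, 7.29 and 7.42 log2 in untreated ones. The groups did not overlap, and the irradiated arrays were also above all 3 untreated 0 h arrays (7.40, 7.34 and 7.39 log2). The difference was 0.34 log2 (SE 0.12, limma adjusted p = 0.0989). FANCG at 3 h had overlapping groups and a difference of 0.05 log2.

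FANCE had 7.01, 7.34 and 7.42 log2 in irradiated TK6 arrays at 3 h, against 6.64, 6.57 and 7.02 log2 in untreated ones. One irradiated array lay just below the highest untreated one, so the groups overlapped. The difference was 0.51 log2 (SE 0.18, limma adjusted p = 0.171), and at 6 h it was 0.13 log2.

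FANCF had 7.86, 7.73 and 7.54 log2 in irradiated TK6 arrays at 3 h, against 8.25, 8.0 and 8.13 log2 in untreated ones. All 3 irradiated arrays were lower, with a difference of −0.42 log2 (SE 0.14, limma adjusted p = 0.119). The other FANCF probe set gave −0.34 log2. At 6 h the irradiated arrays had 8.26, 8.12 and 8.0 log2, against 8.36, 8.29 and 8.28 log2 in untreated ones, again without overlap, and the difference was −0.18 log2 (adjusted p = 0.584). In the other probe set the 6 h groups overlapped (irradiated 7.40, 7.36 and 7.09 log2, untreated 7.59, 7.16 and 7.31 log2).

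These 4 values changed sides with the treatment of the replicate numbers. In TK6 arrays of the same replicate number deviated together (lowest correlation 0.178 at 3 h and 0.259 at 6 h). With the replicate number as a block, FANCE rose (adjusted p = 0.0374) and FANCF fell (adjusted p = 0.0101) at 3 h, where 8.46% of all genes were called. With the same block FANCI (adjusted p = 0.0136) and FANCG (adjusted p = 0.0206) rose at 6 h against the untreated 6 h arrays. In that comparison 13.1% of all genes were called. Without the block these 4 genes were not called.

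The untreated TK6 arrays were themselves not level over time for FANCF. Untreated FANCF had 8.36, 8.29 and 8.28 log2 at 6 h, against 7.97, 7.61 and 7.40 log2 at 0 h. All 6 h arrays lay above all 0 h arrays, as for 9.95% of all genes, and FANCF rose by 0.64 log2 (SE 0.14, limma adjusted p = 0.0105), where 5.16% of all genes were called. At 3 h untreated FANCF was 0.46 log2 above 0 h (adjusted p = 0.0982, 1.81% of all genes called). The other FANCF probe set gave 0.58 log2 at 6 h (adjusted p = 0.0652 in the fit of all probe sets). The call at 6 h was lost without replicate 2 of every group (0.63 log2, adjusted p = 0.24), without replicate 3 (0.53 log2, adjusted p = 0.251), and without the untreated 0 h array of replicate 2 (0.62 log2, adjusted p = 0.05) or of replicate 3 (0.51 log2, adjusted p = 0.0588). It was the only Fanconi anaemia gene called in untreated cells of any line, where the shares of all genes called were 0% and 0.64% in HepG2, 0.0138% and 0.00691% in BJ, and 0% at both times in G361 and U2OS (3 h and 6 h against 0 h). Irradiated TK6 arrays at 3 h, at 7.54 to 7.86 log2 of FANCF, overlapped the untreated 0 h arrays, and the 2 groups differed by 0.05 log2.

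Set against untreated 0 h, FANCE in TK6 rose by 0.60 log2 at 3 h after irradiation (adjusted p = 0.0433, 10.5% of all genes called). FANCF rose by 0.46 log2 at 6 h after irradiation in the same comparison (adjusted p = 0.0301, 14.2% of all genes called), while against time-matched untreated cells it was 0.18 log2 lower. All 3 untreated groups of the TK6 line enter these fits, and the 2 comparisons share the irradiated arrays. FANCC had 5.99, 6.01 and 6.00 log2 in irradiated TK6 arrays at 3 h, against 5.83, 5.51 and 5.84 log2 in untreated ones, all higher (0.27 log2, adjusted p = 0.491). FANCB, FANCL and FANCM in TK6 had differences of −0.16 to 0.12 log2 at the 2 times, and their groups overlapped. In TK6, groups that did not overlap were found for 8.37% of all genes (higher) and 8.99% (lower) at 3 h, and for 13.1% (higher) and 10.6% (lower) at 6 h.

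**Figure D4:**
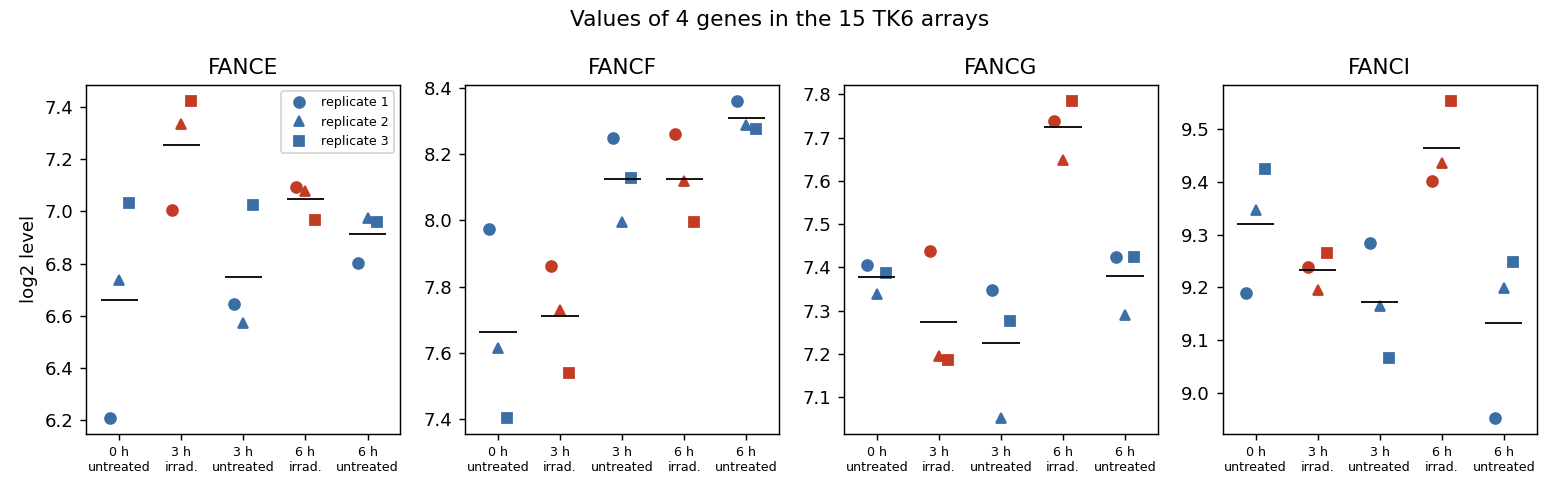
Log2 level of FANCE, FANCF, FANCG and FANCI in the 15 TK6 arrays (red, irradiated; blue, untreated; marker shape, replicate number; bar, mean of 3), with a separate log2 axis for each gene. FANCG and FANCI at 6 h lie higher in all irradiated arrays, FANCF lies lower in them at both times, and untreated FANCF is higher at 3 h and 6 h than at 0 h. Each gene is drawn from the probe set used, and other probe sets of FANCF and FANCI differ at 6 h.

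Promoter sequences were looked up for the TK6 genes and for motifs of the cell cycle. Of the 8 genes, 7 had an entry in the RefSeq table (GRCh38.p14). The 250 bases before the start were searched on both strands for E2F-type motifs, which were TTTCCCGC, TTTGGCGC, TTTGGCGG and TTTCGCGC. The other letters searched were TTTGAA and its variant TTCGAA, motifs of the cell cycle homology region type, and the CCAAT box. FANCC, FANCE, FANCF and FANCG are shown by the 150 bases before the start, 5′ to 3′ on the gene's strand, with motifs on that strand in capitals. The intervals are chr9:95317710-95317859 (minus strand) for FANCC, chr6:35452188-35452337 (plus strand) for FANCE, chr11:22625824-22625973 (minus strand) for FANCF and chr9:35079943-35080092 (minus strand) for FANCG.
FANCC: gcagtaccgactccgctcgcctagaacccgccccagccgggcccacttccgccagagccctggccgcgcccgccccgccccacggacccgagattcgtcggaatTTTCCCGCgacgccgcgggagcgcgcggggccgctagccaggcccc
FANCE: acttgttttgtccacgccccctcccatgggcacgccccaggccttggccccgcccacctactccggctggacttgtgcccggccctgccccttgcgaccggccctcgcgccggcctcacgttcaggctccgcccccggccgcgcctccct
FANCF: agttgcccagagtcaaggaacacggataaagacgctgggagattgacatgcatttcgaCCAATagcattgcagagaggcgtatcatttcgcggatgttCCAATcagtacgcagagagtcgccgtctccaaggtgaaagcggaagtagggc
FANCG: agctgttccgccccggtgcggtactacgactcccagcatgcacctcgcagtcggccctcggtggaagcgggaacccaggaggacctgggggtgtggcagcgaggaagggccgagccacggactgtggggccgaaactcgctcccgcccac
FANCC held TTTCCCGC at bases −46 to −39, a motif found in 1.39% of 35116 promoters, and outside the printed stretch TTTCGCGC on the opposite strand at −172 to −165 (0.439%) and TTTGAA at −248 to −243 (13.3%). FANCF held CCAAT at −92 to −88 and at −52 to −48, and FANCM held it at −74 to −70 and on the opposite strand at −207 to −203. CCAAT was found in 32.0% of promoters. None of these matches overlapped another. None of the searched letters were in the windows of FANCB, FANCE, FANCG and FANCL. A match of letters is a description of the sequence and was not tested as a site.

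BJ fibroblasts had the largest negative differences. FANCI had 6.49, 6.62 and 6.46 log2 in BJ arrays 6 h after irradiation, against 7.17, 7.14 and 6.92 log2 in untreated ones. All 3 irradiated arrays were lower, but the difference of −0.55 log2 (SE 0.29) was not called (limma adjusted p = 0.88), in a line where 0.0899% of genes were called lower and 4.9% had groups that did not overlap in that direction. The other FANCI probe sets gave −0.66 and −0.46 log2. FANCL had 6.43, 5.97 and 6.36 log2 in irradiated BJ arrays at 6 h, against 7.07, 6.89 and 6.22 log2 in untreated ones, with overlap (−0.47 log2, adjusted p = 0.839). FANCM and FANCG differed by −0.41 and −0.40 log2 with overlapping groups. FANCC was the exception among the 7 genes tested, at 0.12 log2.

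The spread of the BJ 3 h arrays was wide for FANCI. Irradiated BJ arrays had 6.36, 7.76 and 6.46 log2 at 3 h, against 6.47, 7.48 and 7.16 log2 in untreated ones. Replicate 2 of the irradiated group was the high array, and it also stood apart in the mean of 33 S phase genes, at 0.14 log2 relative to 0 h, against −0.86 and −0.67 log2 in the other 2 irradiated arrays. Without replicate 2 of every group, the BJ differences of the 7 genes lay between −0.40 and 0.17 log2 at 3 h.

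Set against untreated 0 h, the BJ differences at 6 h were larger. FANCI was 1.05 log2 below 0 h after irradiation (adjusted p = 0.076), FANCL was 0.77 log2 below (adjusted p = 0.0672) and FANCG was 0.75 log2 below (adjusted p = 0.0813). None of these 3 genes was called, where 2.08% of all genes were called. FANCI in untreated BJ cells at 6 h also lay 0.50 log2 below 0 h. The S phase list moved with these values. Its mean relative to 0 h was −0.95 to −0.91 log2 in irradiated BJ arrays at 6 h, against −0.44 to 0.12 log2 in untreated ones, and the mean of 38 G2 and mitosis genes was −1.54 to −1.49 log2, against −0.76 to −0.13 log2. Against time-matched untreated arrays the median difference was −0.53 log2 over 33 S phase genes, of which 1 fell, and −1.02 log2 over 38 G2 and mitosis genes, of which 9 fell, beside 0.02 log2 over all genes tested. The part of the cell cycle genes in the Fanconi anaemia values was not tested.

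The members differed in how they followed the S phase list across groups. After line means were removed, FANCI correlated at 0.79 with the mean of the S phase list over 25 group means, which share 5 lines, and at 0.26 over the 20 group means without BJ. FANCG (0.69, and 0.26 without BJ), FANCL (0.70 and −0.03) and FANCM (0.44 and 0.17) also had lower correlations without BJ. FANCE (0.59 and 0.60) and FANCB (0.51 and 0.50) had like correlations with and without BJ, FANCC had −0.12 with BJ and 0.66 without, and FANCF had 0.11 and −0.05. Between members, FANCI correlated with FANCG at 0.84, with FANCM at 0.63, with FANCL at 0.61 and with FANCC at −0.19. The 4 genes most like FANCI over the 25 group means, among 12963 genes past the level limit in all lines, were CDCA5 (0.91), DIAPH3 (0.89), CENPU (0.88) and DNMT1 (0.88). CDCA5 protects sister chromatid cohesion, DIAPH3 is an actin nucleator, CENPU is a centromere protein and DNMT1 maintains DNA methylation. With line means kept, their correlations with FANCI were 0.94, 0.02, 0.97 and 0.85 in the same order, so the likeness of DIAPH3 to FANCI was seen only with line means removed.

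**Figure D5:**
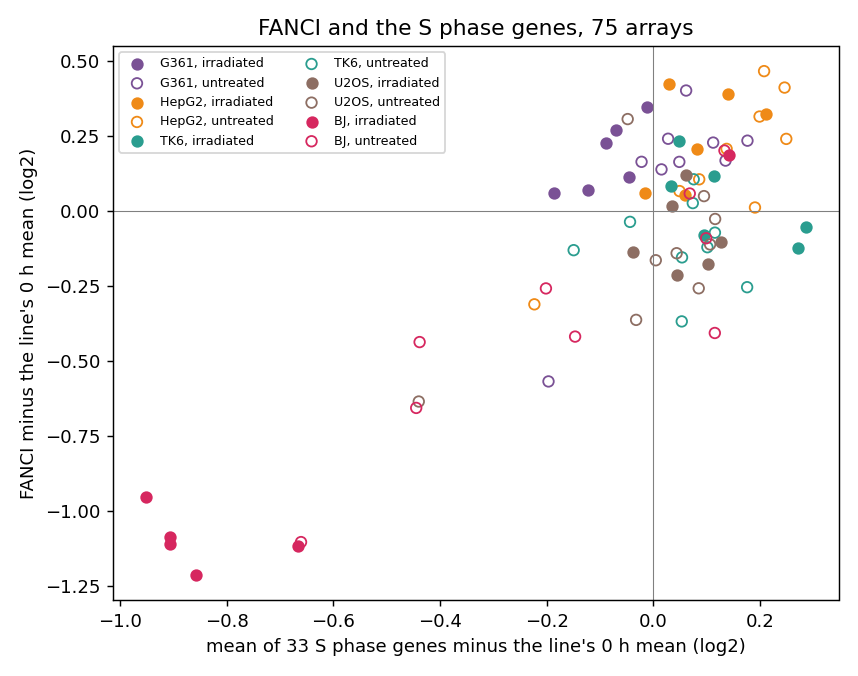
FANCI level against the mean of 33 S phase genes in each of the 75 arrays, both relative to the line's mean at 0 h (log2), coloured by line, filled for irradiated and open for untreated arrays. Of the 6 irradiated BJ arrays, 5 lie at the low end of both axes together with 1 untreated BJ array, and replicate 2 of irradiated BJ at 3 h lies near 0.

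In the arrays labelled HepG2, FANCM differed most. FANCM had 6.38, 6.62 and 6.50 log2 in those labelled irradiated at 6 h, against 6.08, 6.01 and 5.78 log2 in those labelled untreated. The groups did not overlap, and the difference was 0.55 log2 (SE 0.19, limma adjusted p = 0.542), where 7.2% of all genes had non-overlapping higher groups. Without replicate 1 of every group FANCM rose (0.67 log2, adjusted p = 0.0134), in a fit that called 2.59% of all genes. At 3 h the arrays labelled irradiated had 6.35, 6.41 and 6.65 log2, against 6.32, 6.08 and 6.18 log2 in those labelled untreated, again without overlap (0.27 log2, adjusted p = 0.929, 4.56% of all genes higher without overlap). FANCM was 0.60 log2 above untreated 0 h in the arrays labelled irradiated at 3 h (adjusted p = 0.237, 0.452% of all genes called) and 0.63 log2 above it in those labelled irradiated at 6 h (adjusted p = 0.124, 1.54% of all genes called). The other FANCM probe sets past the limit gave 0.23 and 0.15 log2 at 6 h. FANCC (−0.23 log2) and FANCE (−0.22 log2) were lower in all arrays labelled irradiated at 3 h, as were 8.23% of all genes, and neither was called. Against untreated 0 h, the median of the 8 genes was 0.07 log2 in the arrays labelled irradiated at 3 h. It was 0.18 log2 in those labelled irradiated at 6 h, and 0 of the 8 were called at either time.

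In the arrays labelled G361 the 8 genes differed by −0.22 to 0.16 log2 at 3 h and by −0.17 to 0.26 log2 at 6 h, with overlapping groups for every gene. Against untreated 0 h, their median was 0.005 log2 in the arrays labelled irradiated at 3 h and −0.06 log2 in those at 6 h. In these comparisons 0 of the 8 were called, as were 0% of all genes. The replicate 1 arrays of G361 stood apart in the GAPDH control, with a 5′ minus 3′ difference of −0.94 to −0.68 log2, against −0.18 to 0.13 log2 in the other 70 arrays. Without replicate 1 of every group, the differences lay between −0.23 and 0.23 log2 at 3 h and between −0.62 and 0.14 log2 at 6 h, and 0% of all genes were called with or without it.

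U2OS had differences of −0.06 to 0.38 log2 at 3 h and of −0.18 to 0.09 log2 at 6 h, all with overlapping groups. Relative to the 0 h means, the median of the 8 genes was −0.11, −0.25 and −0.11 log2 in the irradiated arrays at 3 h, against −0.61, −0.26 and −0.22 log2 in the untreated ones. All 3 untreated arrays at 3 h were thus low, replicate 1 the most, with a FANCM level of 5.65 log2, against 6.32 and 6.38 log2 in the other 2 arrays of its group. The median difference over all genes tested was also above 0 in that comparison, at 0.10 log2. Without replicate 1 of every group, the 3 h differences lay between −0.24 and 0.10 log2.

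The difference between times and between lines was tested itself. For the change in the irradiation effect between the times (the 6 h difference minus the 3 h difference), 0 Fanconi anaemia genes were called in any line, where 0.295% of genes were called in TK6 and 0% in the other lines. For differences of the irradiation effect between lines, a moderated F test called 0 of 8 genes at 3 h (1.34% of 16027 genes called) and 0 of 8 at 6 h (1.83% called). FANCE and FANCF at 3 h had unadjusted p-values of 0.0284 and 0.027, with adjusted p = 0.631 and 0.624, and FANCM at 6 h had an unadjusted p of 0.0211 with adjusted p = 0.456.

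Other genes of the pathway were described from a list of 20, of which 17 were measured. RAD51C, a recombination mediator, rose in TK6 by 0.91 log2 at 3 h (SE 0.10, adjusted p = 4.93e-06) and by 0.81 log2 at 6 h (adjusted p = 2.44e-05). BRIP1, a helicase partner of BRCA1, rose in TK6 by 0.76 log2 at 6 h (SE 0.14, adjusted p = 0.00203). Thus 1 of 17 rose and 0 fell at 3 h (1.88% of all genes rose and 2.11% fell), and 2 of 17 rose and 0 fell at 6 h (4.01% and 2.23% of all genes). The 17 genes had medians of 0.14 and 0.06 log2, beside 0.04 and 0.13 log2 for the 8 Fanconi anaemia genes and 0.01 log2 for all genes at both times. With the replicate block USP1, which removes ubiquitin from FANCD2 and FANCI, also fell by 0.31 log2 at 3 h (adjusted p = 0.0166), where 8.46% of all genes were called. SLX4, a nuclease scaffold, rose by 0.55 log2 at 6 h with the same block (adjusted p = 0.0178), where 13.1% of all genes were called. In the other 4 lines 0 of 17 were called against time-matched untreated cells.

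FAN1, a nuclease that acts with the ubiquitinated FANCI and FANCD2 pair, rose in untreated TK6 cells relative to 0 h. The rise was 0.60 log2 at 3 h (adjusted p = 0.0473, 1.81% of all genes called) and 0.65 log2 at 6 h (adjusted p = 0.0157, 5.16% called). In BJ cells 6 h after irradiation, relative to untreated 0 h, BRCA1 fell by 1.59 log2 (adjusted p = 0.0182), UBE2T, the ubiquitin-conjugating enzyme that works with FANCL, fell by 1.31 log2 (adjusted p = 0.00823) and USP1 fell by 0.55 log2 (adjusted p = 0.0345). The other 14 of the 17 were not called in that comparison, where 1.39% of all genes fell and 0.691% rose. None of the 3 was called against time-matched untreated BJ cells.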

How the data were processed

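RNA of 75 samples was hybridised to 1 array each. The deposited values are log2 expression, which per the submitters' processing notes the authors summarised by RMA. The sources used here do not give whether all arrays were normalized together. No depth exists for arrays, and the number of arrays limits the precision. Probe sets with 1 gene symbol were kept (41097 of 54675, with 1801 of several symbols and 11777 unnamed here), and symbols were checked by gene identifier (41043 matched, 0 changed). For each gene the probe set with the highest mean was taken. In each line a gene was tested if its mean passed the 40th percentile over probe sets (limits 3.47 to 3.52 log2, 14227 to 14654 genes).

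In R 4.3.3 with limma 3.58.1, 5 group means were fitted to the 15 arrays of a line (eBayes with trend), with Benjamini-Hochberg adjustment over all genes tested. Called, rose and fell mean an adjusted p under 0.05. Lines were compared in fits of all 75 arrays (effects) or the 15 arrays at 0 h (levels). Scripts were tested on simulated data.

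The members, the gene lists and the motifs were chosen with earlier results of these data known. The named genes were all members, up to 4 called genes of the pathway list per line and time, CDKN1A as a p53 target, and the 4 genes most like FANCI. Markers were textbook lists for 5 tissues. Replicate numbers from the labels were read as a sign of pairing where the lowest of 3 correlations of deviations was over 0.1. This held except for HepG2 at 3 h (0.0961) and BJ at 6 h (−0.0306). The main fits still used no pairing, and the replicate block was run only as an alternative, in every line. Alternatives changed the reference, filter, normalization, probe sets, variance model, samples and block.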

Additional observations from a re-analysis of the deposited data

How the results depend on the processing

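Over 28 counts of called Fanconi anaemia genes, 652 of 670 alternatives stayed within 1.5 times the value reported, and 26 of the 28 counts were 0. For irradiated against untreated TK6 at 3 h, the count was 1 with untreated 0 h as the baseline (FANCE) and 2 with the replicate block. At 6 h it was 1 with untreated 0 h (FANCF, which reversed to 0.46 log2), 1 with the mean of all probe sets (FANCG, which has 1 probe set and the same 0.34 log2, at adjusted p = 0.0498, where 6.16% of all genes were called) and 2 with the replicate block. For untreated TK6 at 3 h against 0 h the count was 1 (FANCF) with the replicate block and 1 with quantile normalization of the line. For untreated TK6 at 6 h against 0 h it was 2 (FANCB and FANCF) with each probe set on its own. Leaving out replicates or single arrays gave counts of 0 to 1 for HepG2 at 6 h, TK6 at 6 h, untreated TK6 at 3 h and at 6 h against 0 h, and the difference between lines at 6 h. FANCI in TK6 at 6 h was called without replicate 1 of the untreated 0 h group (adjusted p = 0.0413) or of the untreated 3 h group (adjusted p = 0.0468), and FANCF in untreated TK6 at 3 h was called without replicate 1 of every group (0.55 log2, adjusted p = 0.0197) or of the untreated 0 h group (0.62 log2, adjusted p = 0.0161). For the calls gained in untreated TK6, without TK6 arrays or between lines, no share of all genes called is given here. Those calls cannot be read as particular to these genes. Replicate numbers as a block changed no call of these genes in the other 4 lines, nor the 8 calls of levels at 0 h. Of 190 differences of single genes, 1 was called (FANCF in untreated TK6 at 6 h) and lost its call in 4 alternatives. Among the others, 13 alternatives gained a call and 1 reversed, and 329 changed sign without a call. The causes were not tested. With 3 arrays a group, differences under about 0.37 log2 were often within the confidence interval, and genes near the level limit, such as FANCB, have little signal over background.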
